A study of Mus musculus with 14 samples.

Results

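Injured mouse liver held ductal cells of 2 origins, those that carried a red label from donor hepatocytes and those of the host without it, and RNA of both was compared here. The members are 10 of the 14 libraries of the series, 5 of hepatocyte-derived ductal cells (numbered 219, 220, 225, 248 and 611) and 5 of cholangiocyte-derived ductal cells (118, 219, 220, 225 and 611). They were chosen by their labels and column names. The other 4 are hepatocytes (118, 225, 248 and 611), used to share the estimate of the spread and as a reference level. All animals were C57BL/6 and received 0.1% DDC for 5 to 8 weeks (about 6 in the design text), and livers were digested with collagenase. Both ductal populations passed the same gate, which was positive for the ductal surface antigen MIC1-1C3, negative for CD11b, CD26, CD31 and CD45 and low in side scatter. They differed in the mTomato gate alone, positive for the donor and negative for the host cells. The cell type label was oval cell for the first and cholangiocyte for the second. Origin therefore coincides with graft and recipient: any difference in genotype between donor and host cannot be told apart from origin. The labels used here name no allele in either animal and neither the promoter nor the Cre behind the label. The name cholangiocyte-derived follows the cell type label. The negative gate alone does not separate host biliary cells from any ductal cells formed by unlabelled host hepatocytes.

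DDC blocks haem synthesis, so that porphyrin plugs form in small bile ducts and a cholestatic injury follows. The liver answers with a ductular reaction, an expansion of small ducts of cells long called oval cells. Cholangiocytes, the cells of normal ducts, express Sox9 and cytokeratins 7 and 19, seal the duct with tight junctions and modify bile by chloride and bicarbonate secretion. Hepatocytes make plasma proteins, bile acids and urea, and under chronic injury some of them take on ductal traits, a change called ductal metaplasia.

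Levels are RPKM, reads scaled to transcript length and to the depth of the library, and differences are log2 fold changes of RPKM + 1, hepatocyte-derived minus cholangiocyte-derived, with the standard error. Scaling factors from medians of ratios between libraries were 0.689 to 0.752 in hepatocyte and 1.09 to 1.19 in ductal libraries. Levels relative to hepatocytes therefore depend on the deposited scale and were not recomputed on another one. A gene was called where limma's moderated test gave a Benjamini-Hochberg adjusted p under 0.05 over all 12638 tested genes. The labels do not say that libraries came from separate animals, so p-values measure the spread between these samples, which may be technical. Values are listed in the library order given above. Depth can be estimated only roughly, at 18200000 to 29000000 reads. Between 11757 and 11936 genes reached 1 RPKM in hepatocyte-derived libraries and between 12161 and 12519 in cholangiocyte-derived ones, with no overlap (11857 ± 67.8 against 12342 ± 153, SD, n = 5 each, exact permutation test, two-sided, p = 0.00794, the smallest that 5 against 5 can give). Across genes, which are not independent replicates, the mean Spearman correlation was 0.984 within the first group, 0.976 within the second and 0.904 between them. Both libraries numbered 219 had the lowest summed macrophage, endothelial and neutrophil markers of their group, and cholangiocyte-derived libraries 118 and 220 held the most Col1a2, a fibroblast collagen. The column names carry the tag 1c3 for the ductal libraries 225, 248 and 611 and lack it for 118, 219 and 220. Counts within each of these subsets (3 against 2 and 2 against 3 libraries) are given where they differ from the whole. The Y-linked genes Ddx3y, Eif2s3y, Kdm5d and Uty were at 0 to 0.10 RPKM in both ductal libraries numbered 611 and at 7.02 to 54.1 in the other 8.

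The 4 most abundant transcripts, Spp1, Clu, Apoe and Alb, were those of both origins, but levels differed over a large number of genes. Limma called 1913 genes higher (15.1% of those tested) and 2657 lower (21.0%) in hepatocyte-derived ductal cells, together 36.2%, and 517 (4.09%) and 979 (7.75%) of these differed by at least 2-fold. All 5 libraries lay above all 5 of the other group for 1690 genes (13.4%) and below them for 2579 (20.4%). The median difference of all tested genes was -0.03. After quantile normalization 3069 genes were higher and 2403 lower, with a median of 0.04. On the deposited scale, 82.9% of the 979 genes lower by at least 2-fold were lower still in hepatocytes. Of the 517 higher by at least 2-fold, 61.3% were higher still in hepatocytes. A further 105 of the higher genes (20.3%) had a hepatocyte mean below that of both ductal groups. The same shares over all tested genes were not computed, so these positions were not compared with the background. Of 142 called genes followed one by one, 22 lost the call in both subsets by column name, which hold fewer libraries. These were Abcg2, Alb, Apoc1, Apoe, B2m, Cd74, Cdh1, Cdkn1a, Cdkn1c, Ctgf, Dcn, Fn1, Foxj1, Hes1, Id1, Inhba, Pf4, Pkhd1, Prom1, Rplp0, Slc4a4 and Ttr, and each is described below with its call from all libraries.

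**Figure D1:**
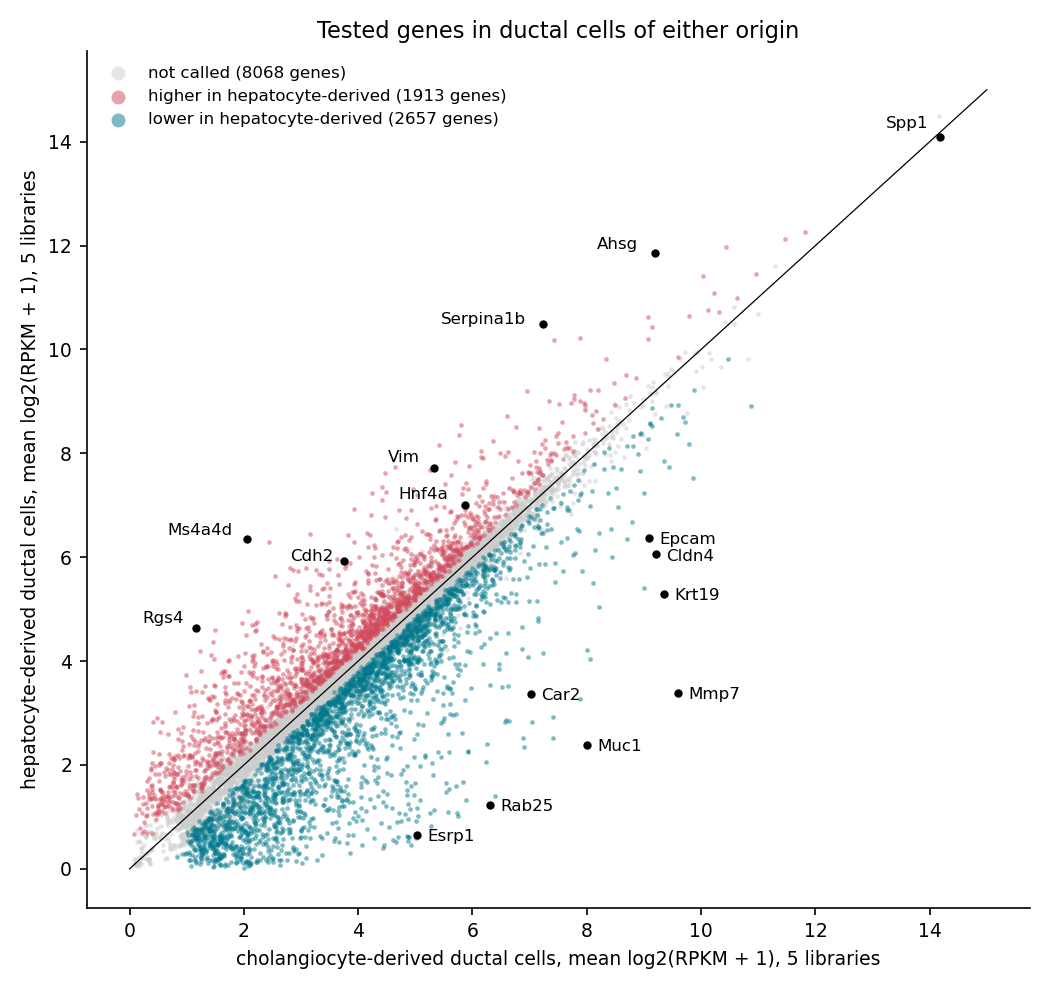
Mean log2(RPKM + 1) of 12638 tested genes in cholangiocyte-derived (x axis) and hepatocyte-derived ductal cells (y axis), 5 libraries each, coloured by the limma call, with 16 genes named and the line of equal level. Spp1 lies on the line, Mmp7, Muc1 and Krt19 far under it and Ms4a4d, Serpina1b and Ahsg above it.

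The 2 most abundant transcripts were not called. Spp1, which encodes the secreted glycoprotein osteopontin, was at 18846, 17359, 16079.6, 18405 and 17109 RPKM in hepatocyte-derived and 18908, 19491, 17997, 18386 and 18310.2 in cholangiocyte-derived libraries. These ranges overlapped and the log2 difference was -0.09 ± 0.20 (limma adjusted p = 0.781, 95% interval -0.53 to 0.35). Clu, which encodes the chaperone clusterin, was at 23114, 21852, 24441, 25039 and 21114 against 17405, 19039, 17083, 21008 and 17196. Its groups did not overlap, and it was not called (adjusted p = 0.159), though it was called higher with library weights (adjusted p = 0.0164). Apoe, an apolipoprotein that hepatocytes also make, was higher at 4954 against 3597 (adjusted p = 0.0247), a call lost with the replicate block (adjusted p = 0.0929). Its difference was -0.11 after quantile normalization.

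Several regulators of biliary fate were not called. Sox9, a factor of the ductal plate, was at 69, 89.4, 91, 107 and 105 RPKM against 106, 76.1, 108, 75.7 and 146. The ranges overlapped, at a difference of -0.12 (interval -0.65 to 0.41). Onecut1, Prox1, Hhex, Foxa2 and Nr5a2, factors of early hepatobiliary development, had differences of -0.14, 0.04, 0.07, -0.12 and -0.01, none of them called. Bicc1, an RNA-binding protein of duct and kidney tubule, was at 259 ± 20.3 against 261 ± 27, and 10.8 in hepatocytes. The simple epithelial keratins Krt8 (adjusted p = 0.0541) and Krt18 (0.104) were not called, at 908 ± 88.6 against 1156 ± 142 and 1658 ± 161 against 2065 ± 296. The interval of Krt8 was -0.63 to -0.06 and that of Krt18 ended just under 0, and they were called lower in 9 and 2 of 29 alternatives (adjusted p = 0.00323 and 0.000139 after quantile normalization). For Sox9 and Onecut1 (-0.95 to 0.68) the interval included 0, which does not show that levels are equal.

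**Figure D2:**
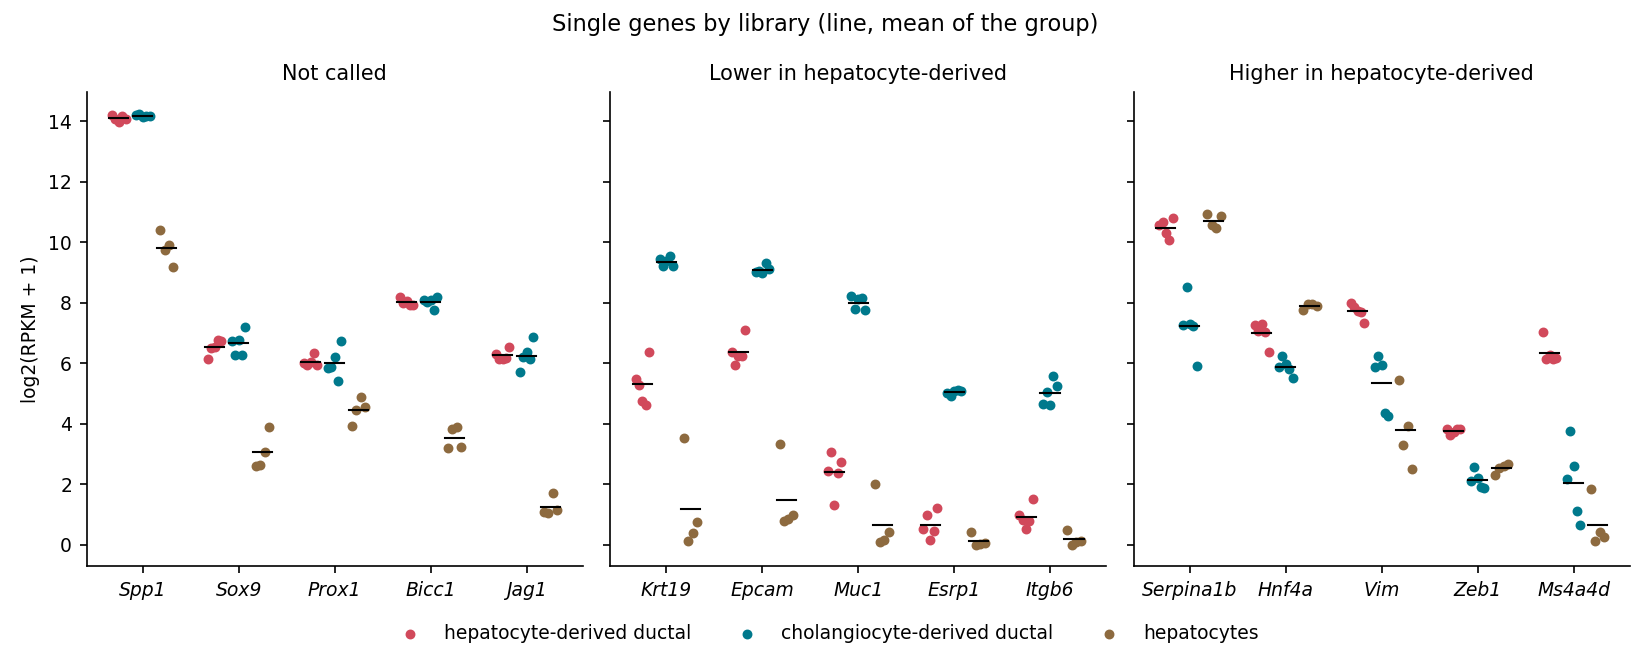
log2(RPKM + 1) of 15 genes in each library, with the group mean as a line; 5 hepatocyte-derived ductal, 5 cholangiocyte-derived ductal and 4 hepatocyte libraries. The first panel holds genes that were not called between the ductal groups, the second genes that were lower (Esrp1 and Itgb6 near 0) and the third genes that were higher in hepatocyte-derived cells.

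Surface and cytoskeletal markers of mature bile ducts were lower. Of 24 biliary markers, 14 were called lower and 0 higher (median difference -1.37, with 21.0% of all tested genes lower), and the same 14 to 0 count was obtained without cholangiocyte-derived libraries 118 and 220. Krt19, the keratin that defines cholangiocytes, was at 43.7, 37.6, 26.1, 23.4 and 81.8 RPKM in hepatocyte-derived libraries. The cholangiocyte-derived libraries held 694, 588, 667, 743 and 598. Every library of the first group lay far under every library of the second, at -4.06 ± 0.52 (limma adjusted p = 2.36e-05, 15.5-fold), although the lowest value of the first group stood above all 4 hepatocyte libraries (0.09 to 10.4). Its partner keratin Krt7 was at 47.4, 28.3, 22.6, 17.6 and 62.6 against 289, 364, 258, 385 and 214, a difference of -3.16 ± 0.43 (adjusted p = 4.06e-05). Epcam, an adhesion molecule of simple epithelia, was at 81.9, 60.8, 73.7, 73.8 and 136 against 514, 533, 501, 633 and 547. In library 611 of hepatocyte origin Krt19, Krt7, Epcam and Prom1, which encodes the membrane glycoprotein prominin, were each the highest of their group.

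Other markers were low throughout the hepatocyte-derived group. Muc1, a transmembrane mucin of the duct lumen (mm9 chromosome 3, 89032974 to 89037291, plus strand), was at 4.43, 7.39, 1.47, 4.18 and 5.66 RPKM against 298, 219, 277, 281 and 214, a difference of -5.62 ± 0.36 (adjusted p = 2.59e-08). Grhl2, a grainyhead factor that sustains epithelial junction genes, was at 0.33 to 2.58 against 20.1 to 27.4, and Ehf, an ETS factor of epithelia, at 45.4 ± 9.19 against 173 ± 12.3. Cldn4, a tight junction claudin, was 8.96-fold lower, at 56.5, 55.1, 61.9, 75.1 and 83.5 against 702, 470.2, 577, 579 and 648. Prom1 was at 27.2 ± 9.4 against 142 ± 18.1 (adjusted p = 0.00198). By contrast Cd24a, a small surface glycoprotein used to sort ductal progenitors, was at 483, 393, 467, 498 and 565 against 669, 737, 628, 781 and 565. The groups were apart by a small margin and it was not called in the fit of all libraries (adjusted p = 0.403), though it was called lower in a fit of the 10 ductal libraries alone (adjusted p = 0.00458).

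Genes with the 10 largest decreases had varied functions. Mmp7, the metalloproteinase matrilysin (NM_010810, mm9 chromosome 9, 7692111 to 7699416, plus strand), had the largest, at 6.67, 13.5, 3.43, 8.94 and 25.3 RPKM against 845, 472, 583, 1016 and 1153. No library of one group came near those of the other, at -6.20 ± 0.69 (limma adjusted p = 6.04e-06) and 70.4-fold. Rab25, a small GTPase of apical recycling endosomes, was at 0.44 to 2.75 against 68.1 to 90.7, and Ap1m2, the epithelial subunit of the clathrin adaptor AP-1, at 0.53 to 2.47 against 45.4 to 58.6. Mal, a proteolipid of apical sorting, was at 0.28 to 1.64 against 46.5 to 68.8. Further members were the GABA receptor subunit Gabrp (-4.88), the tetraspanin relative Tm4sf1 (-4.60), the calcium-activated chloride channel Ano1 (-4.56) and the potassium channel Kcnq1 (-4.56). Msln, which encodes mesothelin, is given with the markers of other cells below.

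Bile secretion genes were mostly lower, with one bicarbonate transporter in the other direction. Of 15 tested genes of cholangiocyte transport, 9 were called lower and 1 higher (60% and 6.67%, against 21.0% and 15.1% of all tested genes, median -1.06). Cftr, the chloride channel that drives fluid secretion, was at 9.15, 7.64, 11.2, 12.4 and 17 RPKM against 50.6, 43.6, 50.6, 57.5 and 46.5. The highest hepatocyte-derived library, 611, was still far under the lowest of the others, at -2.06 ± 0.18 (adjusted p = 7.1e-07). Car2, the carbonic anhydrase that supplies bicarbonate, was 13.5-fold lower (9.68 ± 3.16 against 131 ± 27.1), Slc12a2, the basolateral chloride loader, 6.68-fold, and P2ry2, a purinergic receptor for luminal ATP, 12.4-fold. Sctr, the secretin receptor, was at 10.8, 8.71, 19.3, 26.2 and 7.28 against 33, 32.8, 37.6, 56.7 and 35.6, a difference of -1.49 ± 0.28. Slc4a4, a basolateral sodium bicarbonate cotransporter, was at 110.0, 91.8, 134, 130.1 and 101 against 53.5, 62.9, 49.9, 63.8 and 46.9, all above (difference 1.01 ± 0.26, adjusted p = 0.00693). This call was lost in the subsets with and without 1c3 (adjusted p = 0.146 and 0.259). The ileal-type bile acid carrier Slc10a2, present in cholangiocytes, was not called (37.9 against 26.6, adjusted p = 0.0677), though it was called higher in 5 of 29 alternatives (adjusted p = 0.0139 in ductal libraries alone).

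Mucous and secretory genes followed. Of 13 tested, 9 were lower and 2 higher (69.2% and 15.4%, against 21.0% and 15.1% of all tested genes, median -1.95). Lcn2, an iron-siderophore binding protein of injured epithelium, was at 499 ± 164 against 1939 ± 639 RPKM, Tff2, a trefoil peptide, at 12.2 ± 7.32 against 98 ± 12.2, and St14, the membrane protease matriptase, at 24.4 ± 4.51 against 115 ± 5.89. Galnt3, which starts mucin O-glycosylation, was 7.51-fold lower. Spdef, an ETS factor of secretory differentiation, moved the other way at low level, 1.8, 1.79, 1.75, 1.92 and 2.12 against 0.29, 0.31, 0.15, 0.21 and 0.2 (adjusted p = 1.82e-07).

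Epithelial junction genes were divided. Of 22 tested, 11 were lower and 3 higher (50% and 13.6%, against 21.0% and 15.1% of all tested genes, median -0.38), and 8 and 7 were lower in the subsets with and without 1c3. Esrp1, an epithelial splicing regulator (mm9 chromosome 4, 11259185 to 11313930, minus strand), was at 0.43, 0.97, 0.1, 0.35 and 1.32 RPKM against 30.9, 29.1, 32.5, 33.8 and 32.9. The first group lay near the 0 to 0.32 found in hepatocytes, and the difference was -4.38 ± 0.17 (adjusted p = 2.06e-10). Cldn8, a sealing claudin, was at 0.23 to 0.91 against 23.5 to 36.9. Cdh1, which encodes E-cadherin, differed far less, 378 ± 36.6 against 554 ± 39.1 (difference -0.55, adjusted p = 0.00342). The pore-forming claudin gene Cldn2 (-0.01) and occludin Ocln (-0.05) were not called. Polarity genes Pard6b and Crb3 were lower, at differences of -1.34 and -1.03.

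Regulators and products of the mesenchymal state were partly higher. Of 12 tested genes, 5 were called higher and 2 lower (median 0.40, 15.1% of all tested genes higher), a count that fell to 3 and 0 in the subset with 1c3. Vim, the intermediate filament vimentin, was at 250.1, 229.5, 210.1, 207 and 159.9 RPKM against 57.8, 74, 59.5, 19.4 and 18.2. The groups did not overlap, and the difference was 2.39 ± 0.50 (adjusted p = 0.00154). The second group was uneven, with libraries 225 and 611, those with the tag 1c3, the lowest. The call of Vim was lost in the subset without 1c3 (1.90, limma adjusted p = 0.0933). Zeb1, a repressor of epithelial genes, stood at 13.1, 11.3, 12.1, 13.3 and 13 against 3.32, 4.87, 3.63, 2.71 and 2.66 (1.63 ± 0.12, adjusted p = 1.13e-07). Cdh2, N-cadherin, which hepatocytes also carry, was 4.56-fold higher at 60.2 ± 4.68 against 13.2 ± 5.24, with 26.2 in hepatocytes. Fn1 was at 452 against 286, and its call was lost with the replicate numbers as a block (adjusted p = 0.111). The 2 lower members, Col3a1 and Mmp2, are also fibroblast products.

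Basement membrane genes showed an unequal change of laminin chains and integrins. Of 23 tested, 12 were lower and 3 higher (52.2% and 13%, against 21.0% and 15.1% of all tested genes, median -0.53), with 7 and 8 lower in the subsets with and without 1c3. Laminin chains of epithelial anchorage were lower. Lama3 was at 0.13 to 0.37 against 4.97 to 8.98 RPKM. Lamb3 was at 4.36, 3.68, 1.71, 1.88 and 5.45 against 87.7, 68.1, 80.5, 79.9 and 58. The laminin receptor subunit Itgb4 was at 7.39, 7.44, 7.58, 8.54 and 9.68 against 51.8, 39.6, 53.3, 49.2 and 47.4 (-2.43 ± 0.11, adjusted p = 1.11e-09), and Itgb6, whose heterodimer activates latent TGF-beta, at 0.42 to 1.82 against 23.6 to 46.1. Nid1, a linker of laminin and collagen IV, rose to 85.9 ± 7.44 from 18.3 ± 6.21 (2.23, adjusted p = 6.03e-06). The collagen-binding chain Itga2 and the laminin-binding chain Itga3 did not pass the test, at differences of -0.01 and 0.03, nor did Itgb1 (-0.05).

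Of 27 cilium genes, 11 were called lower, 0 higher and 16 were not called (median -0.22, 21.0% of all tested genes lower), and 4 and 2 were lower in the subsets with and without 1c3. Bbs2, a BBSome subunit, was at 7.28 to 9.86 against 14.6 to 17.4 RPKM, Rfx2, a ciliogenic factor, at 2.56 to 2.95 against 5.01 to 6.93, and Pkhd1, fibrocystin, at 48 ± 2.39 against 74.1 ± 16.5. Foxj1, a factor of motile cilia, was at 84, 75.8, 65.1, 47.9 and 72.5 against 83.1, 109, 100.3, 101 and 107, with overlapping ranges. Its call (adjusted p = 0.0191) was lost with the replicate block (0.111).

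**Figure D3:**
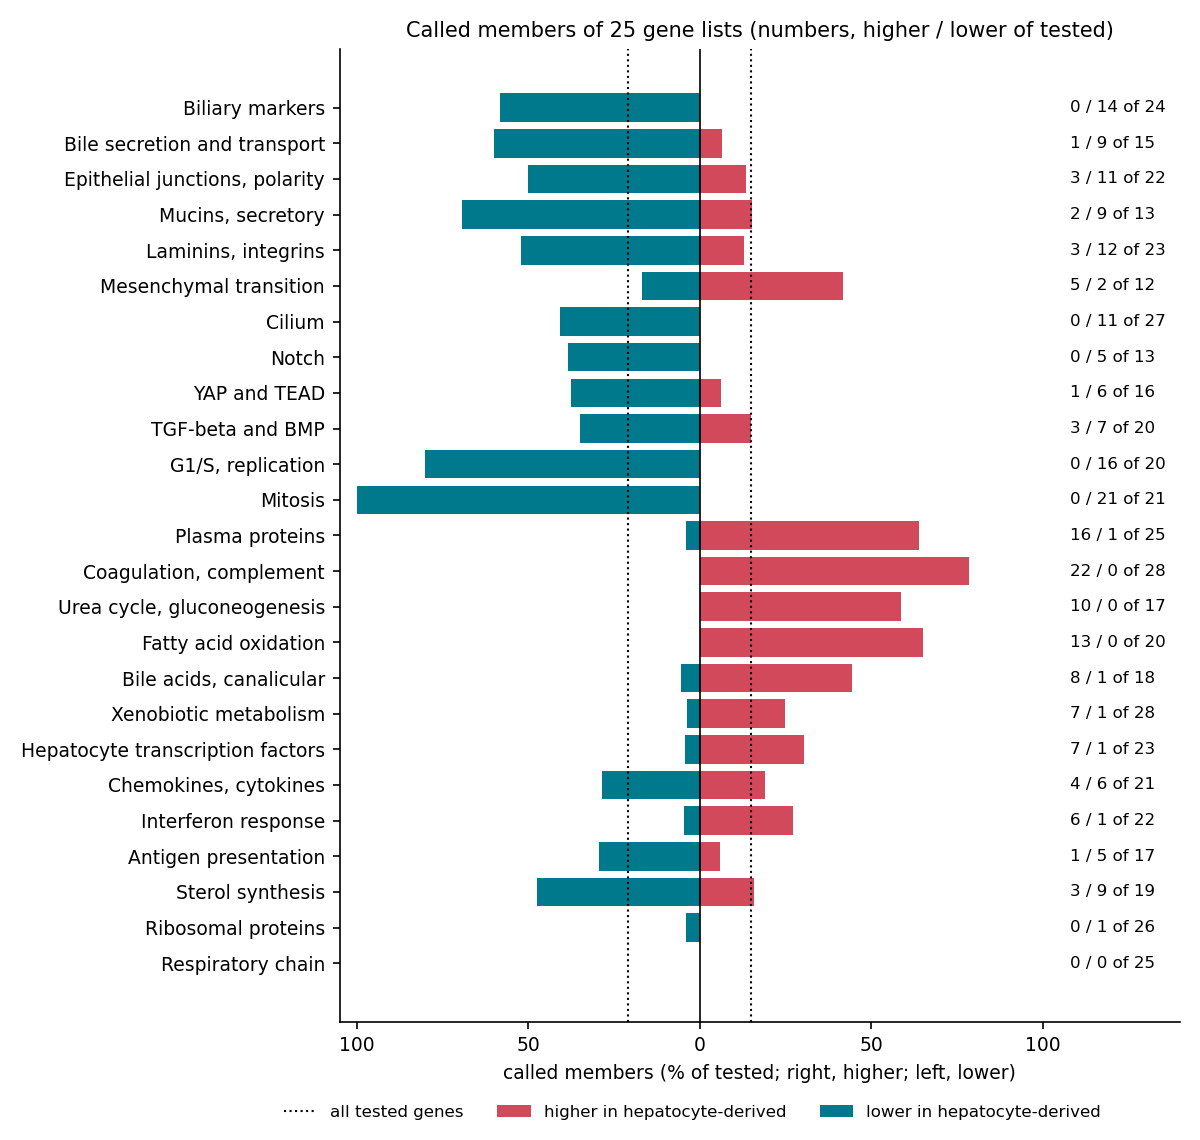
Called members of 25 gene lists as a share of tested members, higher to the right and lower to the left, with the share among all tested genes (15.1% and 21.0%) as dotted lines. Mitosis and replication genes are at the far left, coagulation and complement genes at the far right, and ribosomal and respiratory chain genes have 1 call and 0 calls.

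Hepatocyte functions ran the other way, and the list medians were highest for coagulation and complement genes and for secreted plasma proteins. Of 28 coagulation and complement genes, 22 were higher and 0 lower (78.6% and 0%, against 15.1% and 21.0% of all tested genes, median 1.20), with 21 and 0 without cholangiocyte-derived libraries 118 and 220. Of 25 secreted plasma proteins, 16 were higher and 1 lower (64% and 4%, median 1.06). Ahsg, which encodes fetuin-A, was at 3241, 4556, 3800.0, 4038 and 3078 RPKM against 647, 1072, 572, 515 and 344. The lowest hepatocyte-derived library stood above the highest of the others, which was library 219, and the difference was 2.65 ± 0.25 (limma adjusted p = 9.96e-07). These means were 53.4% and 8.98% of the hepatocyte mean of 7009.8. Serpina1b, an alpha-1 antitrypsin gene with near-identical paralogs between which reads may be split, was at 1517, 1629.9, 1257, 1080.2 and 1775 against 151, 362, 154, 148 and 59.1, that is 86.1% and 10.4% of hepatocytes. F9, coagulation factor IX, was at 43.1, 49.1, 39.2, 37.6 and 46.6 against 6.95, 11.3, 5.77, 6.58 and 2.05, and F12 at 139.9 ± 33.6 against 24.3 ± 15.5. Gc, the vitamin D binding protein, was 2.8-fold higher, at 3998 ± 263 against 1430.3 ± 411. The inhibitor chain genes Itih4, Itih1 and Itih2 were higher by 2.13, 1.61 and 1.34, the complement genes C4b, Cfb and Cfi by 1.40, 1.01 and 0.97 and the anticoagulant Pros1 by 0.95.

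The call of albumin itself was not stable. Alb was at 3152, 6810.3, 4614, 3706 and 4986 RPKM against 3193, 2034, 2867, 3054 and 3215, with overlapping ranges, and its call (0.66 ± 0.23, adjusted p = 0.0359) was lost under 14 of 29 alternatives. Ttr, the thyroid hormone carrier transthyretin, was at 706 ± 149.9 against 463 ± 38.9 (0.59). Apoc1 was the 1 lower plasma protein (319 against 546, adjusted p = 0.015), a call lost without cholangiocyte-derived libraries 118 and 220, and Apoa2 was not called (33.5 to 232 against 35.8 to 330.2). Afp, the fetal albumin relative, was low in both groups (2.41 to 4.18 against 0.99 to 5.81). Of 17 acute phase genes 6 were higher, the 3 fibrinogen chains and Hp among them, and 2 lower. The shares were 35.3% and 11.8%, against 15.1% and 21.0% of all tested genes, and the median difference was 0.12. Fibrinogen beta chain Fgb was at 938, 1272, 1135, 1185 and 1462 against 279, 350.3, 218, 243 and 138 (2.33 ± 0.22, adjusted p = 1.24e-06).

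Promoters of the higher genes are shown because a binding motif of the HNF1 factors, known regulators of liver secretory genes, was more frequent there. The HNF1 motif GTTAAT, read on either strand, was found in 58 of 505 RefSeq promoters (11.5%) of genes higher by at least 2-fold, in 4.16% of those of genes lower by at least 2-fold and in 4.67% of the 12904 promoters of all tested genes, each running from 250 bases before to 50 after a start site. For the HNF4A core CAAAGTC the shares were 6.53%, 5.61% and 3.97%, for the TEAD motif GGAATG 16.4%, 14.8% and 12.4% and for the AP-1 motif TGAGTCA 8.12%, 5.82% and 3.99%. Both strands were searched for each, and none of these 4 motifs contains another. All 4 were more frequent in the higher set than over all promoters, and base composition was not compared. A match is a description and shows no binding. Promoters of 4 higher genes with that motif in capitals follow, 5′ to 3′ on the strand of the gene, from RefSeq (GRCm38.p6, a later build than the mm9 of the expression table).
Fgb (chr3:83049814-83050113, minus strand): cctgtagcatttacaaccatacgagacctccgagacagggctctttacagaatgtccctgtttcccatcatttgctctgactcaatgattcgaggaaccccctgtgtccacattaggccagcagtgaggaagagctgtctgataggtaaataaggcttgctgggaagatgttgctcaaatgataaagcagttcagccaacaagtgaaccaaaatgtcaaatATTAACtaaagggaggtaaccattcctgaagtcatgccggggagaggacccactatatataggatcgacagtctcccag
Gc (chr5:89457849-89458148, minus strand): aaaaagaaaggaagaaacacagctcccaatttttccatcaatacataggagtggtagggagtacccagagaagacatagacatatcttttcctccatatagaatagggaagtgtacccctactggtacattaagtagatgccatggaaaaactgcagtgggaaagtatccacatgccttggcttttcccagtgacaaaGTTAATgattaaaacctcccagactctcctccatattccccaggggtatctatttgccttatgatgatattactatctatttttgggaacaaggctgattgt
F2 (chr2:91636408-91636707, minus strand): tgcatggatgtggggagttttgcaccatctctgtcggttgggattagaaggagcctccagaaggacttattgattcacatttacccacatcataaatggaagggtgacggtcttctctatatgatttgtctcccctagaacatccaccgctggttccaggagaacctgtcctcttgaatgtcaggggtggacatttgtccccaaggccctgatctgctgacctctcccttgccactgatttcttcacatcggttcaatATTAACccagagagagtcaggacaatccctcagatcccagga
Hnf4a (chr2:163546905-163547204, plus strand): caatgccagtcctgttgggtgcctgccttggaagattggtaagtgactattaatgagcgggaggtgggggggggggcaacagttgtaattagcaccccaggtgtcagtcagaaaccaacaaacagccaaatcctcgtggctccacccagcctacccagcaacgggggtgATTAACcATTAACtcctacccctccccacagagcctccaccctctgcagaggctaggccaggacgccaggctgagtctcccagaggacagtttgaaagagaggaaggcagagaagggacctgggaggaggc
The motif begins 29 bases before the start site in Fgb and 52 before it in Gc, 8 bases after it in F2, and 81 and 74 before it in Hnf4a. A second RefSeq promoter of Hnf4a (chr2:163506607-163506906) held 0 matches. Thrombin precursor F2 was at 155, 231, 165, 149 and 152 against 56.5, 60.7, 50.0, 58.7 and 17.7 RPKM (1.88 ± 0.27).

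Hepatocyte transcription factors were higher in part. Of 23 tested, 7 were higher and 1 lower (30.4% and 4.35%, against 15.1% and 21.0% of all tested genes, median 0.07), with 5 and 1 without cholangiocyte-derived libraries 118 and 220 and 10 and 1 after quantile normalization. Hnf4a, the nuclear receptor at the head of hepatocyte identity, was at 152, 134, 156, 129 and 80.7 RPKM against 57.4, 74, 61.3, 54.7 and 44.3. The groups were apart, at 1.13 ± 0.17 (adjusted p = 8.77e-05), and the means were 55.1% and 24.7% of hepatocytes. Foxa3 was at 28.9 ± 5.8 against 11.1 ± 1.99, Nr1h4, the bile acid receptor FXR, at 60.0 ± 15.9 against 26.6 ± 7.49, and Nr1h3, the oxysterol receptor LXR-alpha, at 29.9 ± 4.61 against 14.9 ± 1.14. Gata6 was lower (53.5 against 77.3, adjusted p = 0.00133).

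Metabolic genes divided between enzymes that differed by origin and enzymes that were low in both. Of 28 genes of xenobiotic metabolism, 7 were higher and 1 lower (25% and 3.57%, against 15.1% and 21.0% of all tested genes, median 0.32). Cyp3a11, a major drug-oxidizing P450, was at 1.87, 38.3, 64.2, 55 and 14.8 RPKM against 113, 1.02, 66.5, 104 and 26.2 and 2359 in hepatocytes. The ranges overlapped (adjusted p = 0.726), the means were 1.48% and 2.63% of hepatocytes, and both libraries numbered 219 were the lowest of their group. Cyp2c29 (1.44% and 2.25% of hepatocytes), Cyp2e1 (1.91% and 4.24%) and Cyp2f2 (2.71% and 3.15%) were alike in this, though P450 paralogs can share reads. Fmo1, a flavin monooxygenase, differed: 55.7, 62, 47.3, 44.1 and 55.8 against 11.7, 12.2, 10.1, 8.2 and 3.73, or 33% and 5.72% of hepatocytes (2.48 ± 0.24, adjusted p = 1.5e-06). Ephx2, a soluble epoxide hydrolase, and the oxidase Aox1 were 3.07-fold and 3.21-fold higher. The carboxylesterase Ces1d was the lower one, 72.3, 131, 59, 47.3 and 133 against 202, 149, 199, 152 and 360.0.

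**Figure D4:**
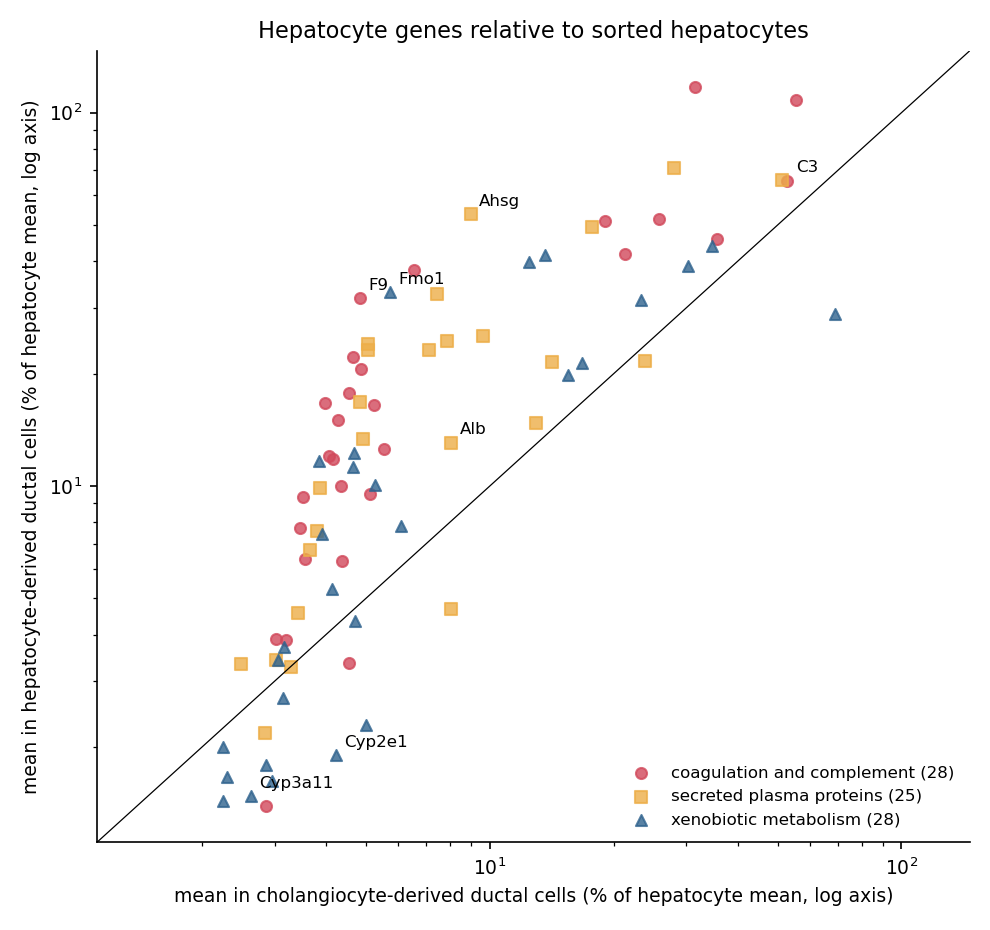
Group mean as a percentage of the hepatocyte mean for 28 coagulation and complement, 25 plasma protein and 28 xenobiotic metabolism genes, cholangiocyte-derived on the x and hepatocyte-derived on the y axis, both logarithmic, with the line of equal level. Ahsg, F9 and Fmo1 lie far above the line, while Cyp3a11 and Cyp2e1 lie below it at low percentages of both axes.

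In bile acid handling 8 of 18 genes were higher and 1 lower (44.4% and 5.56%, against 15.1% and 21.0% of all tested genes, median 0.19). Abcb4, the canalicular phospholipid floppase, was at 33.6, 35.7, 39.4, 33.2 and 31 RPKM against 6.4, 11.1, 6.19, 9.92 and 3.05 (2.19 ± 0.24, adjusted p = 5.43e-06), and Abcc2, the canalicular conjugate pump, at 78 ± 12.7 against 25.5 ± 8.18. Cyp27a1, which starts the acidic pathway, was 3.67-fold higher. The bile salt export pump Abcb11 (4.56 ± 2.09 against 3.85 ± 2.54, 191 in hepatocytes) and Cyp7a1, the rate-limiting enzyme of the classical pathway (0.836 against 1.34, 43.8 in hepatocytes), were not called. In the urea cycle and gluconeogenesis 10 of 17 were higher and 0 lower (58.8% and 0%, median 0.88). Fbp1, fructose bisphosphatase, was at 108, 137, 111, 116 and 73.6 against 34.2, 29, 30.5, 38.8 and 13.5 (1.92 ± 0.24, adjusted p = 1.59e-05). The urea cycle enzyme Cps1 was not called (14.2, 41.9, 42.6, 27 and 18.9 against 34.2, 3.63, 35.1, 39.1 and 13.6), with library 219 again the lowest of each group, and neither were Ass1 (0.12) and Arg1 (0.32).

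Fatty acid oxidation and ketogenesis genes were higher in 13 of 20 cases and lower in 0 (65% and 0%, against 15.1% and 21.0% of all tested genes, median 0.32), with 9 without cholangiocyte-derived libraries 118 and 220 and 5 in the subset with 1c3. Cpt1a, which admits fatty acids to mitochondria, was at 118, 132, 136, 123 and 96 RPKM against 78.7, 81.2, 74.5, 78.2 and 68.7 (0.65 ± 0.11, adjusted p = 0.000295), without overlap. Its means were 121 ± 15.6 and 76.2 ± 4.87, the first of these close to the hepatocyte mean of 117 on the deposited scale. In tyrosine breakdown, where 2 of 6 were higher (33.3%), Tat was at 255, 232, 219, 165 and 162 against 45.2, 84.4, 35.8, 54.7 and 9.35 and Fah, its last enzyme, at 59.6, 67.8, 63.5, 54 and 49.3 against 14.1, 8.91, 15.5, 20.4 and 11.2. All Fah values of hepatocyte-derived libraries lay above all others (2.04 ± 0.18, adjusted p = 4.85e-07, mm9 chromosome 7, 91733670 to 91754452, minus strand), and hepatocytes held 258 to 359. Chimeric livers are commonly made in Fah-deficient recipients, but the labels name no such allele, so the host's Fah genotype and cell origin cannot be told apart here. Hgd and Hpd of the same pathway were not called (0.21 and 0.08). Sterol synthesis went the other way, with 9 of 19 lower and 3 higher (47.4% and 15.8%, median -0.25, 2 and 2 in the subset without 1c3), led by Mvd (7.75 against 18.5) and Fdft1 (25.5 against 38.8).

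Notch signalling, which directs biliary fate, showed lower levels of part of its targets and ligands. Of 13 genes, 5 were lower and 0 higher (38.5% and 0%, against 21.0% and 15.1% of all tested genes, median -0.23, 2 lower in the subset with 1c3). Hes1, the classical target, was at 143, 321, 189, 198 and 245 RPKM against 1050.5, 459, 947, 429.6 and 807. The groups were apart, the second one widely spread with libraries 219 and 225 the lowest, and the difference was -1.71 ± 0.39 (adjusted p = 0.00293, but 0.126 and 0.0932 in the subsets with and without 1c3). The feedback inhibitor Nrarp was at 2.89 to 6.03 against 8.66 to 24.6, and the ligand Dll1 at 2.16 to 2.76 against 8.01 to 11.9 (-1.72 ± 0.14, adjusted p = 2.15e-07). The main duct ligand Jag1 (78, 69.2, 69.2, 70.1 and 92.1 against 51.7, 72, 81.2, 68.8 and 115) and receptor Notch2 (0.11) were not called.

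YAP and TEAD genes, which respond to cell tension and density, were divided as well. Of 16, 6 were lower and 1 higher (37.5% and 6.25%, against 21.0% and 15.1% of all tested genes, median -0.17, with 4 lower without cholangiocyte-derived libraries 118 and 220 and 2 in the subset with 1c3). Ankrd1 was at 40.5, 56.5, 40.9, 59.6 and 184 RPKM against 353, 224, 472, 230.4 and 595, with library 611 the highest in both groups (-2.44 ± 0.49, adjusted p = 0.00117). Ctgf, a secreted matricellular protein, was at 168, 181, 182, 201 and 296 against 481, 406, 534, 617 and 436, without overlap. Its call (adjusted p = 0.0113) was lost with the replicate block (0.143) and without cholangiocyte-derived libraries 118 and 220. Amotl1, a scaffold that binds YAP, was 9.31-fold lower (1.78 to 4.68 against 24.7 to 30.1). The related target Cyr61 was not called (1038 ± 327 against 1056 ± 401, interval -0.71 to 0.71). Tead2 was higher at 50.4 ± 4.13 against 27 ± 3.65, and Tead3 lower at 12.6 ± 0.343 against 21.1 ± 0.78.

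In TGF-beta and BMP signalling 7 of 20 genes were lower and 3 higher (35% and 15%, against 21.0% and 15.1% of all tested genes, median -0.13, with 3 and 2 lower in the subsets with and without 1c3). Bmp4 was at 23, 18.8, 17.4, 18.9 and 17.8 RPKM against 2.83, 7.03, 4.14, 3.56 and 2.95 (2.03 ± 0.18, adjusted p = 7.67e-07). Inhba, the activin A subunit, was higher (32.2 ± 8.87 against 11.7 ± 4.77), while the BMP target Id1 (124, 119.5, 117, 159.7 and 106 against 571, 289.7, 331, 348 and 381) and the inhibitor Smad6 (6.56 against 13.7) were lower. Of 8 Wnt targets and progenitor genes, the feedback ligase gene Rnf43 was higher (0.66) and 1 was lower, 12.5% each.

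Most proliferation genes were lower. All 21 mitosis genes were called lower (median -1.52), as were 16 of 20 genes of G1/S and replication (median -0.80), against 21.0% of all tested genes. Their number was 16 and 12 without cholangiocyte-derived libraries 118 and 220, and 5 and 10 in the subset with 1c3. The summed level of the mitosis genes was 27.5 to 58.4 RPKM in hepatocyte-derived and 85.8 to 251 in cholangiocyte-derived libraries. In hepatocyte libraries it was 66.1 to 199 on the deposited scale. Mki67, the usual proliferation marker, was at 1.8, 3.15, 1.23, 1.35 and 2.12 against 15.5, 12.1, 19.4, 7.05 and 6.92 (-2.11 ± 0.36, adjusted p = 0.000325). Libraries 225 and 611 were the lowest of the cholangiocyte-derived group for Mki67, Top2a, Ccnb2 and Kif23. Top2a, a topoisomerase of dividing cells, was at 1.75 to 5.09 against 8.16 to 27.3. Ccnd1, which links growth signals to G1, was at 61.4, 66.2, 82.5, 104 and 151 against 273, 238, 286, 311 and 389, with a hepatocyte mean of 54.7. Pcna, the replication clamp, was at 25.7, 24.9, 23.8, 24.5 and 29.6 against 47.4, 45.6, 48.2, 47.8 and 37.8. Among 15 genes of p53 and cyclin-dependent kinase inhibitors, 20% were lower and 13.3% higher, close to the 21.0% and 15.1% of all tested genes. Cdkn2b (4.49 ± 2.27 against 18.1 ± 4.38), Cdkn2a (0 to 0.42 against 1.76 to 7.97) and Rbl1 were lower. Cdkn1c and Cdkn1a were higher, the latter with overlap (46.1, 38.8, 74.2, 75.2 and 40.4 against 27.6, 27, 22.2, 46 and 26.2) and a call lost without hepatocyte-derived library 225 or 248 (adjusted p = 0.0509 and 0.0501).

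Of 21 chemokines and cytokines, 4 were higher and 6 lower (median -0.41). These shares, 19% and 28.6%, were close to the 15.1% and 21.0% of all tested genes, and the count turned to 6 and 5 with the replicate block and to 5 and 3 in the subset with 1c3. Cxcl5, a neutrophil chemokine, was at 13.2, 14.1, 12.8, 19.1 and 36.4 RPKM against 410.0, 200.1, 189, 342 and 207 (-3.79 ± 0.48, adjusted p = 1.92e-05). Cx3cl1, fractalkine, was at 12.4 ± 3.74 against 44.7 ± 5.55, and Tnf at 11.5 ± 6.31 against 65.6 ± 24.2. The monocyte chemokine genes Ccl2 (277, 464, 406, 609.8 and 876 against 201, 253, 249, 231 and 326), Ccl7 (23.7 ± 13.6 against 9.16 ± 1.83) and Ccl9 (28 ± 9.45 against 7.6 ± 2.21) were higher. Among 22 interferon response genes 6 were higher and 1 lower (27.3% and 4.55%, median 0.20, 3 in each subset by column name and 13 after quantile normalization), with Usp18 at 26.7 ± 1.83 against 14 ± 1.57 and Bst2 at 183 ± 16.9 against 103 ± 16.1. In antigen presentation 1 of 17 was higher and 5 were lower (5.88% and 29.4%, median -0.39, 2 lower without cholangiocyte-derived libraries 118 and 220). Cd74, the class II invariant chain, was at 79.6, 98.8, 81.8, 95.8 and 175 against 501, 371, 438, 462 and 435, a call lost with the replicate block (adjusted p = 0.0713), and the peptide transporter Tap2 was at 32.6 to 39.4 against 70.2 to 79.9. B2m of class I was higher (2798 against 2002, adjusted p = 0.0163), but its difference was -0.06 after quantile normalization.

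Counts in the stress lists are read against 15.1% of all tested genes higher and 21.0% lower. Of 22 immediate early genes 5 were lower and 0 higher (22.7% and 0%, median -0.73, 1 lower without cholangiocyte-derived libraries 118 and 220), among them Nr4a1 at 8.34, 62.2, 23.1, 26.4 and 45.7 RPKM against 231, 51.8, 267, 75.8 and 221, where library 219 was the lowest of each group. Fos was not called (983 ± 396 against 1946 ± 751, adjusted p = 0.0609). Such genes respond to tissue dissociation as well as to injury, and the part of dissociation was not tested. Of 18 NRF2 targets 6 were higher and 3 lower (33.3% and 16.7%, but 2 and 3 genes without cholangiocyte-derived libraries 118 and 220), with the glutathione transferase Gstm1 2.23-fold higher and G6pdx 2.55-fold lower. Of 19 genes of haem and iron, 5 were higher and 3 lower (26.3% and 15.8%, but 2 and 3 genes without those libraries), with the porphyrin exporter Abcg2 at 64.8 ± 9.26 against 34.6 ± 6.66 and the transferrin receptor Tfrc at 12.8 ± 2.98 against 32.4 ± 5.2. Hmox1 was not called (-0.10). In the list for stress of the endoplasmic reticulum 2 of 18 were higher and 1 lower. Of 26 ribosomal protein genes 1 was lower, Rplp0 (-0.28), and of 25 respiratory chain genes 0 were called by limma (4 had an unadjusted p under 0.05, all higher), with 6 higher and 0 lower after quantile normalization and 7 and 0 with library weights.

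Transcripts of other cells were present and uneven. In bulk samples fewer cells of a type and less RNA per cell cannot be told apart. Limma called 0 of 14 macrophage, 0 of 15 endothelial and 0 of 4 neutrophil markers, and 0 of them had an unadjusted p under 0.05. The shared spread includes hepatocyte library 118, whose macrophage markers summed to 1573 RPKM and endothelial markers to 250. In the other hepatocyte libraries these sums were 33.3 to 42.8 and 8.2 to 19.5. With library weights 2 macrophage and 4 endothelial markers were called lower, and with the replicate block 1 macrophage marker. No lymphocyte marker passed the filter. The summed level of the 16 macrophage markers was 137 to 176 RPKM in hepatocyte-derived libraries other than 219 (25.7) and 228 to 449.9 in cholangiocyte-derived libraries other than 219 (50.9). Endothelial markers summed to 21.7 to 62.7 against 24.9 to 166, and neutrophil markers to 0.46 to 62.5 against 1.84 to 154. Lyz2, a macrophage lysozyme, was at 0.7, 60.4, 47, 58.1 and 61.8 against 181, 1.39, 112, 62.1 and 93.2. Csf1r, the receptor of macrophage growth factor, was at 19.9 to 24.3 against 39 to 50.4 and did not fall in library 219 of either group (22.8 and 43). Its groups did not overlap, and it was not called (adjusted p = 0.2), though it was called lower in a fit of the 10 ductal libraries alone (adjusted p = 1.86e-06). Without hepatocyte library 118 limma called it lower too (adjusted p = 5.53e-07). In that fit Cd24a, Fos and Krt8 were called lower and Slc10a2 higher.

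Stellate and fibroblast markers were lower in 7 of 12 cases and higher in 1 (58.3% and 8.33%, against 21.0% and 15.1% of all tested genes, median -1.75), with 4 lower without cholangiocyte-derived libraries 118 and 220 and 0 in the subset with 1c3. Col1a2, a fibrillar collagen chain, was at 0.33, 2.64, 0.34, 0.79 and 0.25 RPKM against 69.5, 9.62, 74.3, 2.79 and 7.41. Libraries 118 and 220 stood far above the rest, and the difference was -3.38 ± 0.82 (adjusted p = 0.00466). Dcn was at 1.68, 10.7, 6.79, 9.11 and 6.66 against 101, 30.4, 137, 18 and 20.6, a call lost without those libraries and with the replicate block (adjusted p = 0.256 and 0.097). Rgs5, a G protein regulator also used as a pericyte marker, was the higher one, at 1453, 953, 1480.2, 1613 and 1494 against 509, 844, 481, 583 and 481, while the pericyte receptor Pdgfrb was at 0.08 to 0.52 against 0.72 to 10.3 and smooth muscle actin Acta2 at 0 to 0.26 against 0.61 to 7.33. Only 2 of the 6 mesothelial markers passed the filter, and both were called lower (21.0% of all tested genes lower). Msln was at 2.79, 2.77, 0.58, 1.26 and 1.47 against 93.1, 84.8, 88.3, 125 and 44.3 and Gpm6a at 0.36 to 2.69 against 27.6 to 45.5. Neither was highest in libraries 118 and 220, unlike Col1a2 and Dcn. Of 3 tested erythroid and platelet markers, 1 was higher and 1 lower (33.3% each, against 15.1% and 21.0% of all tested genes). The lower one, the platelet chemokine Pf4, was at 2.43 ± 1.5 against 11.6 ± 3.04. The part of other cells in the differences above was not tested beyond the counts given without libraries 118 and 220.

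**Figure D5:**
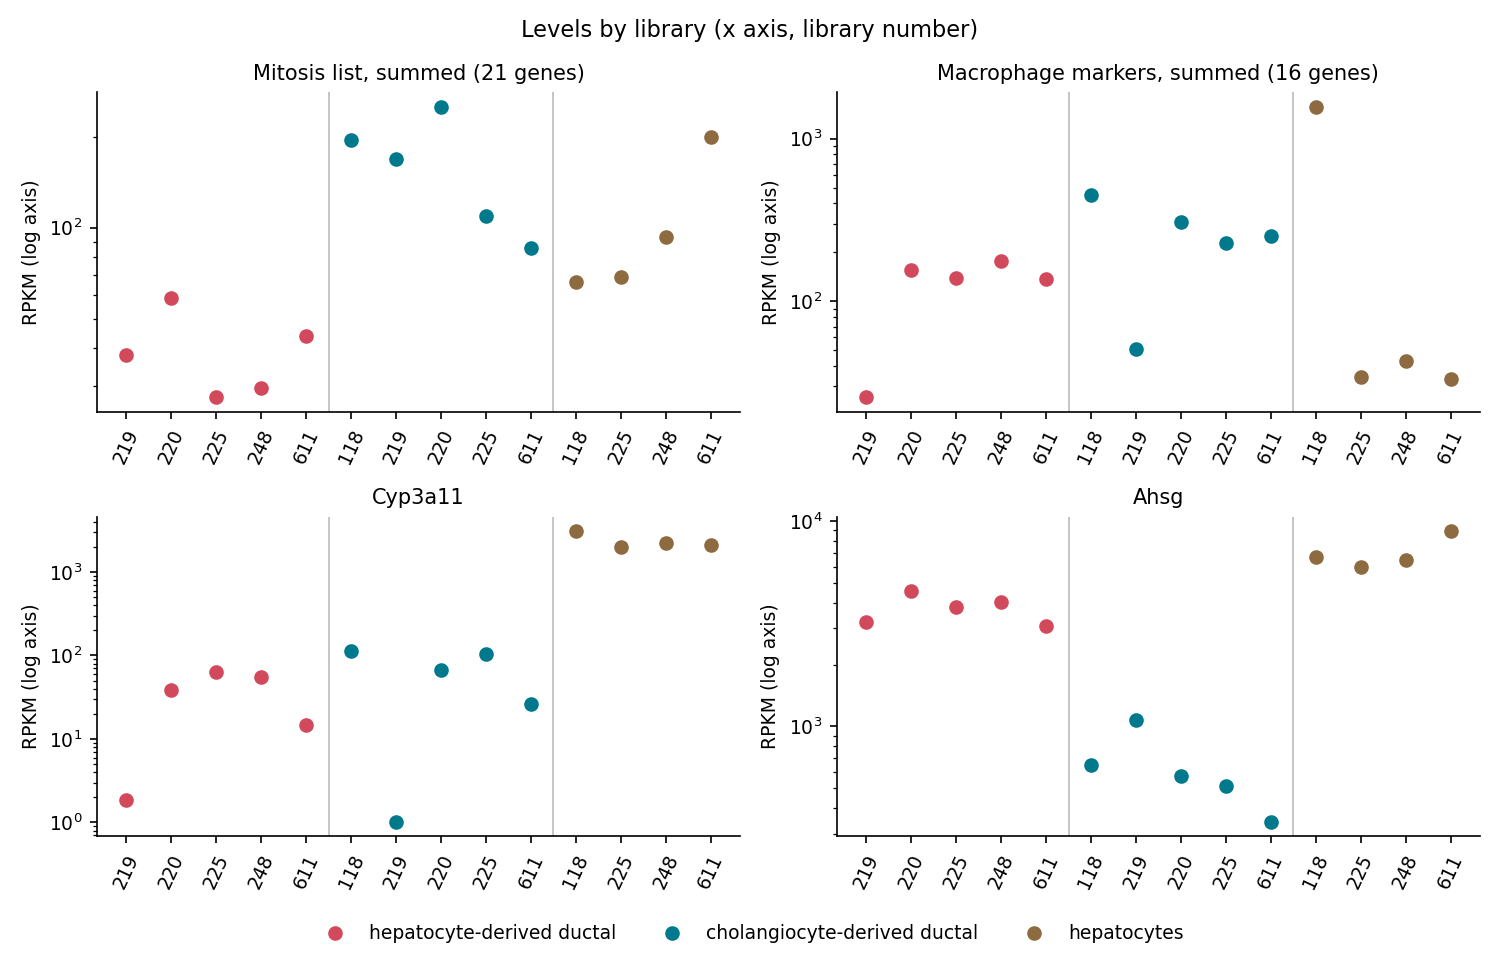
Summed RPKM of 21 mitosis genes and of 16 macrophage markers, and RPKM of Cyp3a11 and Ahsg, in each of the 14 libraries (log axes, library number on the x axis). Mitosis and Ahsg levels divide the ductal groups without overlap, whereas both libraries numbered 219 are the lowest of their ductal group for macrophage markers and Cyp3a11 and not for Ahsg.

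The genes most raised in hepatocyte-derived ductal cells were no single group. Ms4a4d, a membrane-spanning 4-domain protein (NM_025658, mm9 chromosome 19, 11611339 to 11632956, plus strand), was at 129, 70.0, 75.2, 68.8 and 71.5 RPKM against 3.48, 12.5, 5.03, 1.15 and 0.55, with 0.797 in hepatocytes. No overlap was seen, and the difference was 4.30 ± 0.50 (limma adjusted p = 9.38e-06). Rgs4, a G protein regulator (chromosome 1, 171671608 to 171677773, minus strand), was at 18.2, 23.9, 16.1, 19.1 and 58.7 against 0.57, 2.19, 1.31, 1.17 and 1.26 and 0.217 in hepatocytes. Rad51l1, a gene of homologous recombination, was at 104, 55.6, 65.3, 70.5 and 102 against 2.99, 21.9, 4.19, 3.02 and 1.5 and 11.4 in hepatocytes. In these 3 genes hepatocytes were far under hepatocyte-derived ductal cells. Among the others, the GABA transporter Slc6a13 (87.7 against 8.72), the secreted serpin Serpinf1 (197 against 25), the acyltransferase Acnat2 (23.7 against 2.03), complement C1s (214 against 29.2) and Qprt of NAD synthesis (122 against 17.1) had higher means still in hepatocytes. Hepatocyte libraries overlapped hepatocyte-derived ductal ones for Acnat2 (15.96, 29.45, 26.09 and 69.35 against 16.91 to 31.79) and C1s (249.93 to 307.4 against 173.29 to 261.09). The membrane carbonic anhydrase Car14 was at 50.7 ± 14.2 against 5.68 ± 3.96, and 31.8 in hepatocytes.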

How the data were processed

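The authors deposited 1 table of RPKM values for 26005 transcripts in 14 libraries; per the submitters' processing notes, CASAVA, Bowtie 0.12.7 and the mm9 build were used. How they were combined, and the counting, is not stated there. Library preparation (TruSeq RNA v2, 75 to 200 ng total RNA) does not mark strand, so antisense and overlapping genes cannot be separated. The row with the highest mean was kept for each of 20377 symbols, and the 12638 that reached 1 RPKM in 4 or more libraries were tested. Values were analysed as log2(RPKM + 1), which understates changes of low genes, in R 4.3.3 with limma 3.58.1 (3 groups, 14 libraries, trended empirical Bayes, Benjamini-Hochberg adjustment, 11 residual degrees of freedom), tested on simulated data. Figures used Python 3.11.15 and matplotlib 3.10.9.

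Named genes were the 10 highest and 10 lowest fold changes among called genes of at least 5 RPKM without overlap, fixed markers, up to 5 members of each of 42 lists by adjusted p, the most abundant marker of each other cell type, the 5 most abundant genes of each group and sex-linked genes. Genes named outside this rule were chosen after their values were seen. A few genes are not reported here. Members and lists were chosen with earlier results of these data known. The 2 columns numbered 220 match no sample title (the titles have 120 in both ductal groups), so each was placed in its group by the gate in its name and not tied to a sample. Same-numbered ductal libraries deviated together from their group means (correlation 0.80 for 219, 0.43 for 220, 0.21 for 225 and 0.42 for 611). Some differently numbered pairs did so too (0.46 for hepatocyte-derived 220 with cholangiocyte-derived 118, 0.20 for 225 with 118 and for 248 with 611). The main fit held the group alone, so its p-values ignore this pairing. The numbers were taken to pair libraries only in the alternatives with a replicate block. Alternatives were other pseudocounts, filters and scalings, ductal libraries alone, summed transcripts, library weights, a replicate block, left-out libraries and, added after seeing the data, the 1c3 subsets, 220 as a shared number and the removal of 3 libraries.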

Additional observations from a re-analysis of the deposited data

Results flagged for a closer look

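In a group of 5 libraries, a value was singled out where its gap to the nearest other library exceeded 0.71 of the whole range (Dixon's limit). Of 368 groups of 5 checked for the named genes, 44 (12%) held such a library. Chance gives about 1 in 20 groups, and genes of one library are not independent. Values are RPKM. Hepatocyte-derived library 611 stood apart in Ankrd1 (184), Ccl9 (44.7), Cd74 (175), Cdkn2b (8.44), Ctgf (296), Cxcl5 (36.4), Epcam (136), Grhl2 (2.58), Itgb1 (207), Pf4 (5.04), Prom1 (43.6) and Rgs4 (58.7). Hepatocyte-derived library 248 stood apart in Prox1 (79.95). Hepatocyte-derived library 220 stood apart in Col1a2 (2.64), F2 (231), G6pdx (12), Rgs5 (953) and Ttr (971). Hepatocyte-derived library 219 stood apart in Bmp4 (23), Lyz2 (0.7) and Ms4a4d (129). Cholangiocyte-derived library 611 stood apart in Ces1d (360.0), F2 (17.7), Gpm6a (45.5), Pcna (37.8) and Pkhd1 (103). Cholangiocyte-derived library 225 stood apart in Cdkn1a (46), Cdkn2a (7.97), Mal (68.8) and Sctr (56.7). Cholangiocyte-derived library 219 stood apart in Acnat2 (4.38), Afp (5.81), Apoc1 (368), Ehf (152), Rad51l1 (21.9), Rgs5 (844) and Tead2 (33.3). The Y-linked genes were low in both ductal libraries numbered 611: Ddx3y at 0.05, Eif2s3y at 0.09, Kdm5d at 0, Uty at 0.01 in the hepatocyte-derived one and Ddx3y at 0.02, Eif2s3y at 0.1, Uty at 0.01 in the cholangiocyte-derived one. Hepatocyte library 611 was low as well, with a sum of 0.22 over these genes. The low level was thus found with number 611 in each group. The sex of the animals and the sample number were not separated by a test.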

How the results depend on the processing

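No gene was called in opposite directions under any alternative run. The 1913 higher and 2657 lower calls became 3069 and 2403 after quantile normalization, so that the higher calls outnumbered the lower ones, and 2987 and 3924 with library weights. They fell to 949 and 1396 in the subset with 1c3 in the column names and to 1021 and 1576 in the subset without it, which hold fewer libraries. A pseudocount of 5 left 294 and 440 genes past 2-fold in place of 517 and 979. Leaving out each library in turn gave 1614 to 2387 higher and 2359 to 3304 lower calls, 464 to 570 and 913 to 1010 past 2-fold, and a difference in genes at or above 1 RPKM of -530.4 to -440.9. With the replicate block 1562 genes were higher and 2227 lower (512 and 852 past 2-fold), and with 220 as a shared number 2058 and 2902. The block ended the calls of Apoe, Cd74, Ctgf, Dcn, Fn1, Foxj1 and Rplp0 (adjusted p = 0.187) among the genes named and made one of Fos (0.0284). After quantile normalization the differences of B2m and Apoe turned to -0.060 and -0.11. Higher against lower members turned for chemokines (6 and 5 with the replicate block, 5 and 3 in the subset with 1c3, 7 and 6 without cholangiocyte-derived libraries 118 and 220 and hepatocyte library 118), NRF2 targets (2 and 3) and haem genes (2 and 3) without cholangiocyte-derived libraries 118 and 220, and in the subset with 1c3 for haem (0 and 2), endoplasmic reticulum stress (0 and 1) and stellate genes (1 and 0). Apart from the smaller number of libraries, the cause was not tested.

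Depth can only be estimated: 1 RPKM on a transcript of 2000 bases is about 36 to 58 reads, so levels under about 1 RPKM rest on few reads. In the 1c3 subsets, groups of 2 libraries are assumed to vary like the other groups.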

Other observations

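Set against hepatocytes, the lists of hepatocyte function stood at different levels in the ductal populations. The percentages hold for the deposited RPKM scale only. The median gene of coagulation and complement stood at 15.8% of its hepatocyte mean in hepatocyte-derived and 4.6% in cholangiocyte-derived ductal cells. For secreted plasma proteins the medians were 16.8% and 7.12%, for the urea cycle and gluconeogenesis 11.5% and 4.61% and for bile acid handling 16.7% and 4.14%. For xenobiotic metabolism they were 7.63% and 4.67%, for hepatocyte transcription factors 64.1% and 45.8%, for fatty acid oxidation 37.9% and 24.4% and for sterol synthesis 35.8% and 45.3%.

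Single libraries were uneven along the same genes that differ by origin. Among the 517 genes higher by at least 2-fold in hepatocyte-derived cells, cholangiocyte-derived library 219 was the highest of its 5 in 74.3% (29.5% over all tested genes) and library 611 the lowest in 68.7% (29.9% over all). Ms4a4d, for example, was at 12.5 RPKM in cholangiocyte-derived library 219 and 0.55 in 611, and Rad51l1 at 21.9 and 1.5. Among the 979 lower genes, hepatocyte-derived library 611 was the highest of its 5 in 47% (29.4% over all). These genes were picked on the same libraries, so the shares are a description with no test.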
